A study of Danio rerio with 32 samples.

Results

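The comparison described here is day 1 against day 0 of the culture, in mononuclear cells from the dorsal muscle of adult zebrafish. The paper calls these cells myogenic progenitors. The comparison rests on 9 of 32 Affymetrix Zebrafish Genome Arrays, chosen by the day and batch in their titles. The 5 arrays of day 1 are replicates A and B of array batch 1 and replicates A, B and C of array batch 2. The 4 arrays of day 0 are replicate A of batch 1 and replicates A, B and C of batch 2. Replicate B of day 0 in batch 1 was left out, because the labels grade that array as poor and its correlation with the other arrays was at most 0.196. In batch 2 each replicate letter was hybridized in its own run, with 1 array of each day, and the 3 arrays of batch 1 shared a run of their own.

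According to the labels, cells of both days were grown in Promocell medium with fetal bovine serum and a fibroblast growth factor, and then moved to a differentiation medium with horse serum. The paper counts days of differentiation, but it also describes day 0 as the time of isolation. Which of these starts holds for the arrays was not tested. The methods describe pooled fish that were skinned and gutted, enzymatic digestion, removal of red cells, a Ficoll gradient and pre-plating. The methods name the α-actin–RFP line for the arrays, in which a skeletal muscle α-actin promoter drives a red fluorescent reporter. The deposited signal of the DsRed control probe set was 7796 to 17809 on the batch 1 arrays of days 7 to 14 and at most 239.8 on any batch 2 array, and whether batch 2 came from that line was not tested. The labels give no strain and no age beyond adult fish, and they do not say whether the replicates came from separate preparations. The paper calls replicates A and B of most days biological duplicates, without saying whether each was a separate preparation. The p-values may therefore measure only technical spread. A cell count at plating is given only in the labels of the first batch.

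Muscle progenitors that carry Pax3 and Pax7 activate Myf5 and MyoD. As they differentiate, they leave the cell cycle, fuse and raise their expression of myogenin, desmin and sarcomeric actin. Lowering the serum is the usual trigger in culture. Cells taken from tissue by enzymes are also known to carry transcripts of the stress of dissociation, such as the immediate early genes, together with transcripts of whichever other cells survive the isolation. The first day therefore bears on early muscle genes, the cell cycle, the early response and the markers of other cells.

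The values are signals after quantile normalization, on which every array had a median of 172.2, and log2 refers to log2(signal + 32). A log2 change is day 1 minus day 0, and it understates the change of dim genes because of the offset. A gene stands by the probe set with the highest mean log2 level over the 9 arrays. Fewer cells of a type and less RNA per cell cannot be told apart on these arrays.

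Some arrays stood apart before any test. The day 0 array of batch 1 had correlations of 0.788 to 0.871 with the other 8 arrays across 15502 probe sets, the highest of them with day 1 replicate C of batch 2. Day 1 replicate B of batch 2 had correlations of 0.881 to 0.901 within its batch, where all other pairs lay between 0.937 and 0.970. Over all arrays but the one left out, this array was closest to day 4 replicate A of batch 2 (0.952), and the day 0 array of batch 1 to day 4 replicate A of batch 1 (0.895). The scale factor in the labels, which grows as the raw signal falls, was 19.69 and 10.10 on the day 1 arrays of batch 1, against 23.41 on its day 0 array. In batch 2 it was 3.13, 8.24 and 4.88 on day 1, against 2.36, 4.53 and 5.78 on day 0. The labels give these factors with a target of 500 in batch 1 and 1500 in batch 2, whereas the deposited trimmed mean was 500 on every array, so they were compared only within a batch. The GAPDH signal at the 3′ end over that at the 5′ end, which grows as RNA is degraded, was 2.15 and 1.74 on day 1 and 2.43 on day 0 in batch 1. In batch 2 this ratio was 3.34, 9.72 and 5.27 on day 1 and 3.42, 8.06 and 8.57 on day 0.

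Over the 9 arrays, with the hybridization run as a block, no probe set was called higher (0.0%) or lower (0.0%) on day 1 at a limma adjusted p under 0.05, and every adjusted p was 1.0. At an unadjusted p under 0.05, 148 probe sets were higher and 240 lower, which together make 2.5% of those tested. Counted by gene, these were 87 of 8793 genes higher (0.989%) and 146 lower (1.66%). Batch 2 alone, 3 arrays against 3, gave 4 probe sets called higher (0.0258%) and 0 called lower (0.0%). These counts were not stable, with 33 to 47 called higher and 1 to 73 lower when 1 array was left out, and 79 and 32 with all 20 arrays of the batch. The 73 lower were called without either array of C, 44 without either of A and 1 without either of B. At an unadjusted p under 0.05 batch 2 had 609 genes higher (6.93%) and 506 lower (5.75%).

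The first day differed between the batches. The change in batch 2 was larger than that in batch 1 for 395 probe sets (2.55%) and smaller for 32 (0.206%) at an adjusted p under 0.05 in the limma test of the difference. By gene these were 312 (3.55%) and 9 (0.102%). Across 15502 probe sets the change in batch 2 and the change in batch 1 had a Pearson r of -0.39, a description in which probe sets are not independent. Batch 1 holds a single day 0 array, so that array and the batch cannot be told apart. No call of this difference was left whenever 1 array of batch 2 was left out.

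Among genes with the same direction in both batches, those of antigen processing and the acute phase stood first. The rule for naming took the 12 smallest p of each sign among these genes, and none of the 24 passed the adjusted test. Serum amyloid A, saa, an acute phase protein, had day 1 signals of 328 and 392 in batch 1 and 388, 2000 and 388 in batch 2. Its day 0 signals were 105 in batch 1 and 246, 317 and 80.5 in batch 2. The day 1 and day 0 arrays did not overlap, and replicate B of batch 2 was far above the other day 1 arrays. The log2 change of saa was 1.63 (SE 0.34, limma adjusted p = 1.0), with 0.60, 2.54 and 1.90 in the runs of A, B and C of batch 2 and 1.51 in batch 1.

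A group of 4 subunits of the immunoproteasome, the form of the proteasome that makes peptides for display by MHC class I, were among the 12 genes higher on day 1. The signals of psmb12 were 840.2 and 726 in batch 1 and 1131, 1649 and 668 in batch 2 on day 1, against 129 and 519, 359 and 503 on day 0. Those of psmb8a were 820 and 843, and 1225, 1983 and 907 on day 1, against 291, and 601, 500.1 and 705 on day 0. For psmb13a they were 591 and 688, and 731, 999 and 656 on day 1, against 52.7, and 488, 395 and 306 on day 0. In all 3 genes every day 1 array lay above every day 0 array, a separation that held for 43 of 8793 genes with day 1 above (0.489%) and 28 with day 1 below (0.318%). The log2 changes were 1.54 (SE 0.36) for psmb12, 1.19 (SE 0.31) for psmb8a and 1.58 (SE 0.41) for psmb13a. The last of them, psmb9a, had 1.304 (SE 0.38) and its groups overlapped, since replicate C of batch 2 had 647 on day 1 and 657 on day 0.

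In batch 2 the 4 subunits differed most in the run of B, at 2.105, 1.92, 1.27 and 2.07 for psmb12, psmb8a, psmb13a and psmb9a. In the run of C they differed by 0.39, 0.35, 1.03 and -0.02. Interferon regulatory factor irf1b, a transcription factor known to act on such genes in mammals, had 10585 and 9823 in batch 1 and 8601, 11124 and 5594 in batch 2 on day 1. On day 0 irf1b had 5330, and 6622, 5636 and 3121. Each of its 5 differences was above 0, although the groups overlapped, and the log2 change was 0.79 (SE 0.26, limma adjusted p = 1.0).

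The other genes of the 12 were a mixed group. They were glucagon gcga (1.25), the transcobalamin tcnbb (1.57), fam210aa (1.06), the cargo receptor cnih1 (0.86), thioredoxin txnb (0.95), the sodium pump subunit atp1a3a (0.97) and zbtb12.2 (0.86), given as log2 changes. Their groups overlapped, and each was higher in all 5 differences. A second probe set of zbtb12.2 had -0.39, so its direction depends on the probe set. Over all genes, 327 of 8793 were higher in all 5 differences (3.72%) and 280 lower in all 5 (3.18%), where both differences of batch 1 share a day 0 array.

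Among the measured genes of glycolysis, hk2 and pfkpa were named for their small p, and both were higher in all 5 differences. Hexokinase hk2, which phosphorylates glucose, had 1616 and 1852 in batch 1 and 1519.5, 1692 and 1894 in batch 2 on day 1, against 752, and 993, 1258 and 1018 on day 0. The groups of hk2 did not overlap, and its log2 change was 0.80 (SE 0.26). The phosphofructokinase pfkpa, which commits the sugar to glycolysis, had 0.77 (SE 0.26) with overlapping groups. Of the 44 measured genes of glycolysis, glycogen and creatine kinase, 2 were higher and 0 lower at an unadjusted p under 0.05. The shares over all genes were 0.989% and 1.66%, and the list median was 0.07, beside 0.00 over all genes. In batch 2 the counts were 3 and 3, beside 6.93% and 5.75% over all genes, with a list median of -0.03.

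**Figure D1:**
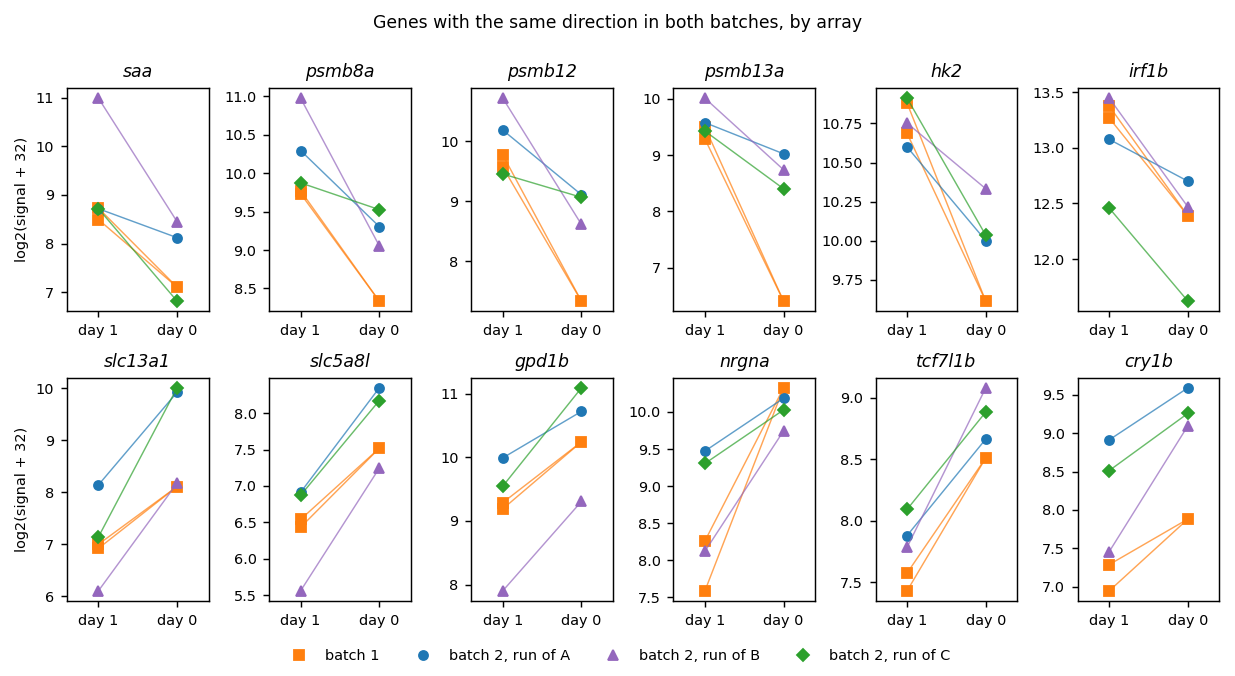
Log2(signal + 32) of 12 genes on the 5 day 1 arrays (left) and 4 day 0 arrays (right), with lines joining arrays of a run. The 6 genes above are higher on day 1 in each run and the 6 below lower, with the day 1 array of the run of B (triangles) often farthest out, as for saa at 2000 and slc13a1 at 36.7 before log2.

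Among the genes lower on day 1 in both batches, the transporters slc13a1 and slc5a8l stood first by their p. The sulfate transporter slc13a1, known from the kidney tubule, had 95.8 and 89.0 in batch 1 and 249.8, 36.7 and 109 in batch 2 on day 1. On day 0 it had 244, and 937, 257 and 995. It was lower in all 5 differences, with a log2 change of -1.90 (SE 0.32, limma adjusted p = 1.0), and only the day 1 array of A in batch 2 reached above the lowest day 0 array. The monocarboxylate transporter slc5a8l had 54.4 and 61.1, and 88.5, 15.15 and 85.1 on day 1, against 151, and 294, 120 and 257 on day 0. Its groups did not overlap, and the log2 change was -1.34 (SE 0.26).

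The other lower genes of the rule came from several classes. The glycerol phosphate dehydrogenase gpd1b had a log2 change of -1.16, the fibrinogen chain fgb -1.23, the agouti signaling peptide asip2b -1.27 and the cytochrome cyp3c3 -1.30. Neurogranin nrgna, a calmodulin-binding protein known from neurons, had 160 and 275, and 679, 247 and 601 on day 1, against 1251, and 1132, 827 and 1012 on day 0. Every day 1 value of nrgna lay below every day 0 value, with a log2 change of -1.44 (SE 0.36).

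Of the Wnt pathway repressor tcf7l1b every day 1 array lay below every day 0 array. Its signals were 159 and 140 in batch 1 and 203, 188 and 241 in batch 2 on day 1, against 333, and 374, 510.2 and 441 on day 0. The log2 change was -0.98 (SE 0.25), with -0.96 in batch 2 and -1.01 in batch 1. The remaining genes were opn1sw1, an opsin of cone cells (-1.15), the claudin cldn10l2 (-0.93), si:dkeyp-73d8.9 (-0.96) and akt1s1, a substrate of the mTOR kinase complex (-1.10). The groups of opn1sw1 did not overlap, at 11.98 to 70.19 on day 1 and 78.5 to 128.4 on day 0, levels below the array median.

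Genes of kidney, liver and intestine were then counted as a list of 71 measured genes, written after the values were seen, to which slc13a1, slc5a8l, fgb, cyp3c3 and gcga belong. Over the 9 arrays 1 of them was higher and 9 were lower at an unadjusted p under 0.05. The shares over all genes were 0.989% and 1.66%. The members just named had been picked by their small p over these arrays, so the counts include them. In batch 2 the counts were 1 and 26, beside 6.93% and 5.75% over all genes. The list had a median of -0.41 there, beside 0.05 over all genes. Its medians were -0.30, -0.83 and -0.44 in the runs of A, B and C. In batch 1 the median was 0.44, so the list lay on the other side of 0 there.

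The 4 probe sets called higher in batch 2 were those of piwil1, hormad1, rbm44 and si:ch211-209a2.2. The first of these encodes a Piwi protein that silences transposons in germ cells, and hormad1 encodes a protein of the meiotic chromosome axis. On day 1 piwil1 had 754, 719 and 3823 in batch 2, against 41.3, 11.96 and 47.6 on day 0. In batch 1 it had 356 and 643 on day 1, against 4909 on day 0. Thus it rose in batch 2 by 4.37 on the log2 scale (SE 0.41, limma adjusted p = 0.037) and had -3.27 in batch 1, a difference of 7.64 (SE 0.81, limma adjusted p = 0.00959).

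The course of hormad1 was alike. It had 453, 341 and 2496 in batch 2 on day 1, against 3.9, 10.4 and 26.3 on day 0, a log2 rise of 4.11 (SE 0.42, limma adjusted p = 0.0409). In batch 1 it had 65.1 and 733 on day 1, against 10095 on day 0. The log2 changes in batch 2 were 2.86 for rbm44, known from mouse germ cells (adjusted p = 0.0409), and 3.22 for si:ch211-209a2.2 (adjusted p = 0.0496). For these 2 genes the difference between batches was 7.38 and 8.30, with limma adjusted p of 0.0113 and 0.0205. In all 4 genes the day 0 array of batch 1 had the highest level of the 9 arrays. The 3 day 0 arrays of batch 2 had the lowest, except for rbm44, which had 18.4 on day 1 replicate A of batch 1 and 59.17 on day 0 replicate C of batch 2. No probe set was called in batch 2 with no replicate block, with a smaller or a larger offset or among probe sets of higher signal.

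Germ cell and meiosis genes were counted as a second list written after the values were seen, a choice that can raise its counts. In batch 2 24 of its 44 measured genes were higher and 1 lower at an unadjusted p under 0.05. The shares over all genes were 6.93% and 5.75%, a background for each such batch 2 count below. The list median was 0.84 in batch 2, with 0.74, 0.43 and 1.91 in the runs of A, B and C, and -1.69 in batch 1. For 19 of the 44 genes the change was larger in batch 2 than in batch 1 at a limma adjusted p under 0.05, and for 0 it was smaller. These shares were 3.55% and 0.102% over all genes. The telomere protein terb1, needed in meiosis, had 185, 155 and 619 in batch 2 on day 1 and 19.05, 20.9 and 40.8 on day 0. In batch 1 terb1 had 71.6 and 246 on day 1 and 2260 on day 0. The summed signal of the list was 9328 to 31281 on the day 1 arrays and 6152 to 7370 on the day 0 arrays of batch 2, while the day 0 array of batch 1 had 72644. Of the 44 genes 40 lay above 0 in batch 2 and 16 in batch 1, beside 4861 and 4335 of all 8793 genes. Whether tissue of the gonad was carried into some preparations, or array labels were exchanged, was not tested, and this limit holds for each germ cell, flagellum and cell cycle value and for the differences between batches.

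Genes of the sperm flagellum and of cilia, another list written after the values were seen, were mostly higher on day 1 in batch 2 and mostly lower in batch 1. In batch 2 35 of 66 measured genes were higher and 0 lower at an unadjusted p under 0.05, and 57 were above 0. The shares over all genes were 6.93% higher and 5.75% lower, and the late choice of the list can raise its counts. In batch 1 3 of the 66 were above 0, and the list medians were 0.80 in batch 2 and -2.96 in batch 1. The difference between the batches was called for 43 of the 66, all with the larger change in batch 2, beside 3.55% of all genes. The tektin tekt1, a filament of the axoneme, had 365, 216 and 775 in batch 2 on day 1, against 81.2, 60.2 and 92.2 on day 0. In batch 1 it had 195 and 409 on day 1, against 6078 on day 0. The difference between the batches was 6.25 for tekt1 (SE 0.70, limma adjusted p = 0.00986) and 7.57 for cfap299, another gene of cilia and flagella (SE 0.91, limma adjusted p = 0.0113).

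**Figure D2:**
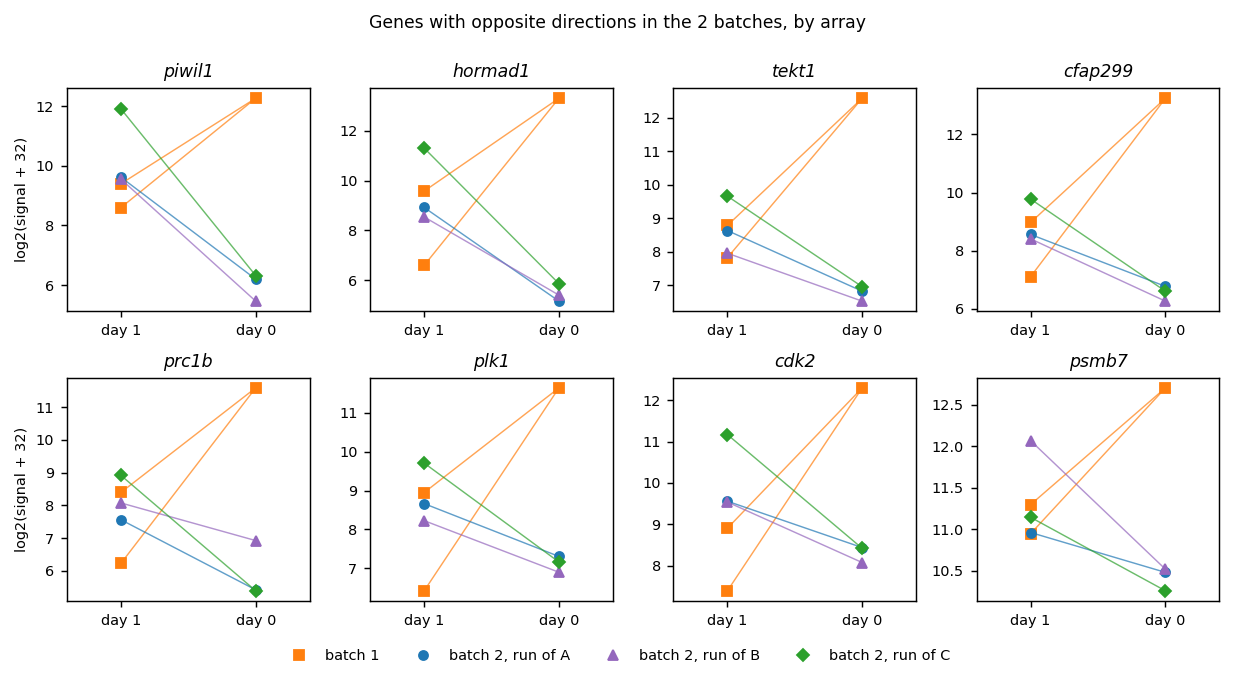
Log2(signal + 32) of 8 genes on the day 1 arrays (left) and day 0 arrays (right), with lines joining arrays of a run. The day 0 array of batch 1 (square at right) is the highest of the 9 for all 8 genes, as for piwil1 at 4909 and psmb7 at 6639 before log2, while the batch 2 lines run higher on day 1.

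Cell cycle genes also had opposite directions in the batches. In batch 2 33 of the 65 M phase and mitosis genes were higher and 0 lower on day 1 at an unadjusted p under 0.05, and 60 lay above 0. In batch 1 4 of the 65 lay above 0, and the list medians were 0.75 in batch 2 and -1.93 in batch 1. The list of S phase and DNA replication had 19 of 63 genes higher and 0 lower in batch 2, with medians of 0.48 and -1.05. The difference between the batches was called for 27 genes of M phase and 7 of S phase, all with the larger change in batch 2. Over all genes 3.55% were called with the larger change in batch 2 and 0.102% with the smaller.

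The spindle protein prc1b, which bundles microtubules at the midzone, had 157, 238 and 451 in batch 2 on day 1, against 10.9, 89.7 and 10.1 on day 0. In batch 1 prc1b had 43.1 and 305 on day 1, against 3043 on day 0. The mitotic kinase plk1 had 374, 267 and 804 in batch 2 on day 1, against 126, 87.3 and 111 on day 0, and in batch 1 it had 53.6 and 462 on day 1, against 3170 on day 0. Both genes thus had their highest level on the day 0 array of batch 1 and lower levels on the other day 0 arrays than on the day 1 arrays of their runs. The difference between the batches was 6.54 for prc1b (SE 1.095, limma adjusted p = 0.0217) and 5.71 for plk1 (SE 1.09, limma adjusted p = 0.0327).

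The kinetochore gene ndc80 and the cyclin-dependent kinase gene cdk2 had differences of 6.39 and 5.93, with limma adjusted p of 0.0317 and 0.0142. The replication gene uhrf1, which maintains DNA methylation, had 765, 694 and 844 in batch 2 on day 1, against 263, 279 and 342 on day 0, and in batch 1 297 and 493 on day 1, against 1145 on day 0. Its difference between batches was 2.80 (SE 0.57, limma adjusted p = 0.0408). By contrast rb1, which holds cells in G1, was above every day 0 array on all 5 day 1 arrays, at 336 to 785 on day 1 and 210.4 to 308 on day 0, with a log2 change of 0.77 (SE 0.31, limma adjusted p = 1.0).

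In the M phase, germ cell and flagellum lists the 3 day 0 arrays of batch 2 had the lowest medians of the 9 arrays, and the highest was on the day 0 array of batch 1 for M phase and flagellum genes and on day 1 replicate C of batch 2 for germ cell genes. On day 1 the median log2 level of the M phase list was 7.86 and 8.38 in batch 1 and 7.83, 7.70 and 8.27 in batch 2, against 10.08, and 7.14, 7.17 and 7.15 on day 0. For the germ cell list the medians were 7.57 and 8.01, and 7.54, 7.35 and 8.98 on day 1, against 8.77, and 6.18, 6.42 and 6.28 on day 0. For the flagellum list they were 7.14 and 7.81, and 7.57, 7.46 and 8.39 on day 1, against 10.56, and 6.98, 6.77 and 7.03 on day 0. The part of these other genes in the cell cycle result was not tested. Of the 312 genes with the larger change in batch 2, 19 were in the germ cell list, 43 in the flagellum list and 34 in the M or S phase lists, and 95 in any of the 4.

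Genes of ribosome biogenesis and the proteasome had mostly positive changes in batch 2, largest in the run of B, and 0 of them were called. Of 76 measured genes of ribosome biogenesis, 73 lay above 0 in batch 2 and 18 were higher and 0 lower at an unadjusted p under 0.05. The list median was 0.60 in batch 2, with 0.30, 1.29 and 0.22 in the runs of A, B and C, and -0.16 in batch 1. The nucleolar gene nol6 had 507 and 403 in batch 1 and 553, 1097 and 352 in batch 2 on day 1, against 204, and 356, 374 and 261 on day 0. It was higher in all 5 differences, with a log2 change of 0.89 (SE 0.28) and overlapping groups. The helicase gene ddx55 had 0.97 in batch 2 (SE 0.27, limma adjusted p = 0.279) and -0.57 in batch 1.

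Of 46 measured proteasome subunits, 45 lay above 0 in batch 2 and 8 in batch 1. At an unadjusted p under 0.05, 19 were higher and 0 lower in batch 2, and 5 were higher over the 9 arrays. The share higher over the 9 arrays was 0.989% of all genes. The immunoproteasome subunits psmb12, psmb8a, psmb13a and psmb9a had been picked by their small p over these arrays. The count of 5 is therefore not independent of that choice. The medians were 0.25, 1.38 and 0.36 in the runs of A, B and C. The core subunit psmb7 had 1959, 4257 and 2229 in batch 2 on day 1, against 1395, 1433 and 1191 on day 0, and in batch 1 it had 1941 and 2483 on day 1, against 6639 on day 0. The immunoproteasome subunit psmb13a had 0.95 in batch 2 and 2.98 in batch 1, opposite in order to psmb7 at 0.97 and -1.58. The difference between batches did not pass for either, with limma adjusted p of 0.0962 for psmb13a and 0.0617 for psmb7.

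Aminoacyl tRNA synthetases and mitochondrial ribosomal proteins had medians of 0.43 and 0.42 in batch 2. In the run of B these medians were 1.26 and 0.95, whereas the runs of A and C gave 0.24 and 0.01 for the synthetases and 0.18 and -0.02 for the mitochondrial ribosome. The asparaginyl tRNA synthetase gene nars1 had 4702, 12975 and 3740 in batch 2 on day 1, against 2066, 3552 and 3852 on day 0. The cytosolic ribosomal proteins, which build the ribosome itself, had a median of 0.03 in batch 2 and -0.06 in batch 1, with 0 of 73 genes at an unadjusted p under 0.05 in batch 2. The chaperonin gene tcp1 had 0.74 (SE 0.29) and glutathione reductase gsr 0.81 (SE 0.30) over the 9 arrays, each higher in all 5 differences. The antioxidant and metal response list did not share the direction of gsr in both batches, with medians of -0.25 in batch 2 and 0.49 in batch 1.

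**Figure D3:**
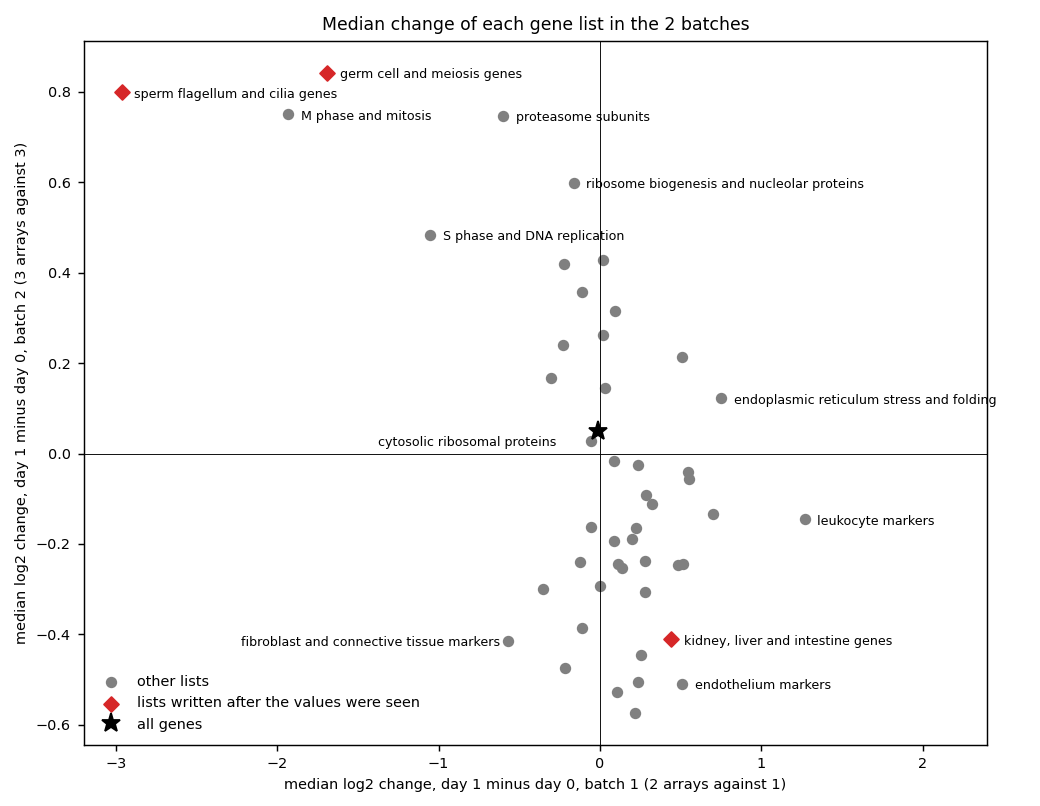
Median log2 change, day 1 minus day 0, of each gene list with at least 10 measured genes in batch 1 (horizontal) and in batch 2 (vertical), with all genes as a star. The germ cell, flagellum and M phase lists lie farthest to the upper left, at 0.84, 0.80 and 0.75 in batch 2 against -1.69, -2.96 and -1.93 in batch 1, and the leukocyte markers farthest to the right at 1.27.

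Immediate early genes and genes of the clock and glucocorticoid response were mostly lower on day 1 in batch 2 and mostly higher in batch 1. Of 42 measured immediate early genes 2 lay above 0 in batch 2 and 30 in batch 1, and 0 were higher and 8 lower in batch 2 at an unadjusted p under 0.05. The list medians were -0.51 in batch 2 and 0.23 in batch 1, with -0.19, -1.10 and -0.31 in the runs of A, B and C. The transcription factor egr1, induced within minutes by serum and stress, had 2592, 1041 and 2198 in batch 2 on day 1, against 4109, 3897 and 4079 on day 0. In batch 1 egr1 had 3884 and 2594 on day 1, against 2436 on day 0. Its change in batch 2 was -1.14 (SE 0.32, limma adjusted p = 0.279), and egr2b and egr4 had -1.15 and -1.06. The difference between batches was called for 0 genes of this list and of the clock list.

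Of 36 measured clock and glucocorticoid genes 0 were higher and 9 lower in batch 2 at an unadjusted p under 0.05, with medians of -0.45 in batch 2 and 0.25 in batch 1. The glucocorticoid target klf9 had 4216, 551 and 2918 in batch 2 on day 1, against 6926, 3637 and 5313 on day 0. In batch 1 it had 2062 and 1327 on day 1, against 1631 on day 0. The enzyme hsd11b2, which inactivates cortisol, had -1.87 in batch 2 (SE 0.46, limma adjusted p = 0.211) and 0.12 in batch 1. The clock repressor cry1b was lower in all 5 differences, at 91.2 and 124, and 450.4, 144 and 333 on day 1, against 204, and 739.8, 516 and 581 on day 0, a log2 change of -0.94 (SE 0.28). The uncoupling protein ucp3 (-1.28) and the autophagy kinase ulk1b (-1.11) were also lower in all 5 differences, both farthest in the run of B. The list of lysosome and autophagy genes went the other way from ulk1b, with medians of 0.21 in batch 2 and 0.51 in batch 1.

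A set of 11 genes of the muscle lineage, most of them stained or measured by PCR in these cultures, showed no call on the first day. The progenitor genes pax7a and pax3a had 16.8 to 340 and 2.5 to 131 on day 1, and 38.8 to 117 and 18.2 to 44.0 on day 0. Their highest levels were on day 1 replicate A of batch 1. The determination genes myf5 and myod1 had 41.3 to 122 and 22.0 to 75.6 on day 1, and 59.9 to 162 and 14.8 to 81.2 on day 0. Most of these signals lay below the array median, and the direction of pax3a, pax7a and myod1 changed with the scaling, offset, block or probe set.

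Myogenin myog, the factor of terminal differentiation, had 88.6 and 64.8 in batch 1 and 185, 189 and 66.7 in batch 2 on day 1, against 60.5, and 103, 171 and 97.3 on day 0. Its log2 change was 0.17 (SE 0.28), smaller than its error. Desmin desma had 616 and 196, and 348, 367 and 130 on day 1, against 168, and 184, 351 and 137 on day 0, a log2 change of 0.48 (SE 0.38). The sarcomeric actin acta1a had 188 and 73.3, and 252, 344 and 194 on day 1, against 486, and 315, 348 and 502 on day 0. It was lower in all 5 differences, at -0.01 in the run of B and -2.30 between replicate B and the day 0 array in batch 1, with a log2 change of -0.90 (SE 0.39, limma adjusted p = 1.0).

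Of the other genes of that set, caveolin cav3 had -0.52 (SE 0.34), the adhesion molecule ncam1a -0.23 (SE 0.25) and the chemokine receptors cxcr4a and cxcr4b -0.24 (SE 0.57) and 0.61 (SE 0.43). The direction of cxcr4a turned without the run of B in batch 2. Of 22 measured myogenic transcription factors 0 were higher and 0 lower at an unadjusted p under 0.05, and the list medians were -0.31 in batch 2 and 0.28 in batch 1. Of 45 sarcomere and contractile genes 0 were higher and 2 lower, beside 0.989% and 1.66% of all genes, with a median of -0.28. Dystrophin dmd, which ties the fiber to its matrix, was below every day 0 array on all 5 day 1 arrays, at 153 to 245 on day 1 and 255 to 409.5 on day 0, a log2 change of -0.66 (SE 0.27, limma adjusted p = 1.0). Parvalbumin pvalb2, a calcium buffer of fast fibers, had -1.36 (SE 0.56), and its groups overlapped. Its differences were 0.16, -0.26 and -3.06 in the runs of A, B and C of batch 2, and its change was -2.04 in batch 1.

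Markers of the labelled cell type and of blood cells were both measured on every array. The 7 myogenic markers summed to 365 to 1333 on the day 1 arrays and 518 to 973 on the day 0 arrays. None was at 0 throughout, but a signal above 0 does not by itself show that a marker was expressed. On the arrays compared, the control probe set for the reporter EGFP had deposited signals of 10.4 to 90.6. The normalized signals were 14.8 to 81.2 for myod1 and 130 to 616 for desma. The EGFP values were not normalized and come from another probe set, so they set no floor for these genes. Whether either gene was expressed was not tested on these arrays. The paper reports myod1 protein in most cells at the time of isolation. The 6 leukocyte markers summed to 30224 to 69770 on day 1 and 35870 to 40880 on day 0. Lysozyme lyz, a product of macrophages and neutrophils, had 22138 to 41977 on day 1 and 22899 to 30148 on day 0. Signals of different probe sets are not on a common scale, so these sums describe each list and do not rank the cell types.

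**Figure D4:**
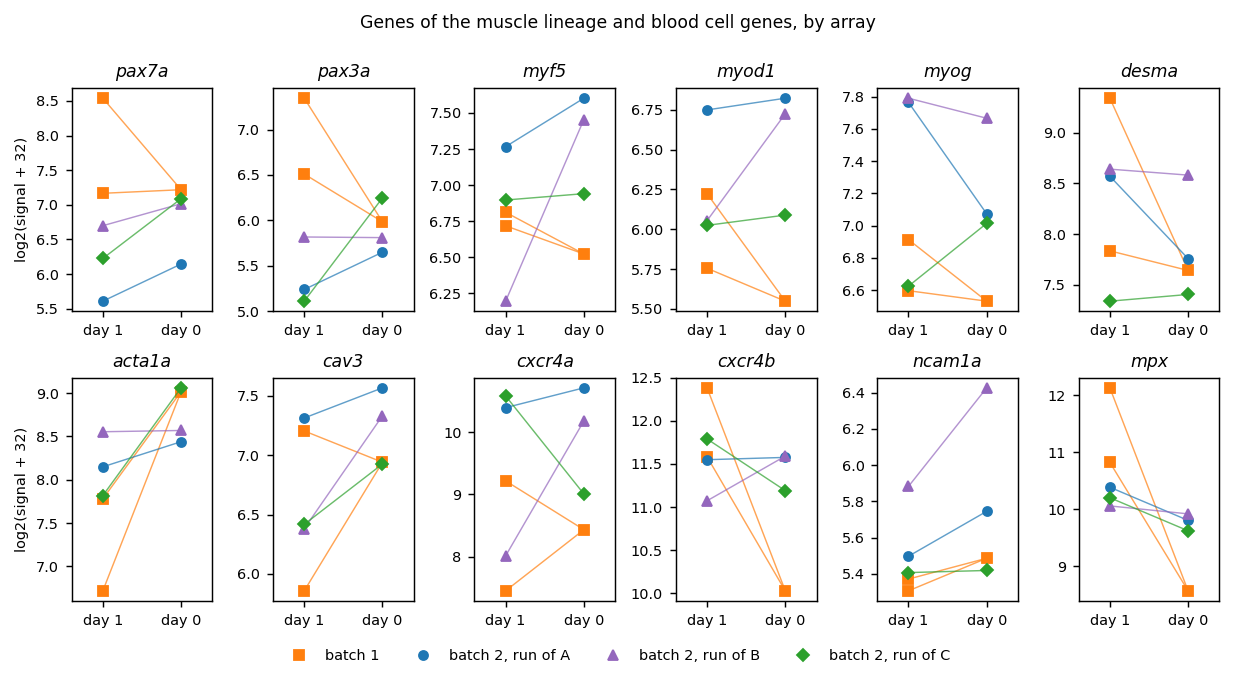
Log2(signal + 32) of 11 genes of the muscle lineage and its stains and of the neutrophil gene mpx on the day 1 arrays (left) and day 0 arrays (right), with lines joining arrays of a run. The lines of most muscle genes cross or diverge between runs, acta1a is lower on day 1 in every run, and mpx is higher on day 1, most in batch 1 (square).

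Leukocyte genes were mostly higher on day 1 in batch 1, while in batch 2 their median change was small and its sign differed between runs. Of 34 measured leukocyte markers 11 lay above 0 in batch 2 and 31 in batch 1, with medians of -0.15 and 1.27. The medians were -0.20, -0.41 and 0.20 in the runs of A, B and C of batch 2. In that batch 0 markers were higher and 1 lower at an unadjusted p under 0.05. The peroxidase mpx of neutrophils had 1782 and 4463 in batch 1 and 1309.7, 1037 and 1149 in batch 2 on day 1, against 349, and 864, 938 and 758 on day 0. Its groups did not overlap, and the log2 changes were 0.43 in batch 2 and 2.91 in batch 1. The oxidase subunit cyba had the same separation, with 922 to 1653 on day 1 and 291 to 835 on day 0. The myeloid factor spi1b had 1323, 2222 and 1687 in batch 2 on day 1, against 1639, 2276 and 1334 on day 0, and in batch 1 it had 1649 and 3177 on day 1, against 374 on day 0. The difference between the batches for spi1b was -2.52 (SE 0.63, limma adjusted p = 0.078). Of the other genes of the list 2 passed, both with the smaller change in batch 2, beside 0.102% of all genes.

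Of 39 measured genes of inflammation and innate immunity 12 lay above 0 in batch 2 and 35 in batch 1, with medians of -0.13 and 0.70. In batch 2 5 were higher and 10 lower at an unadjusted p under 0.05. The genes saa, irf1b, psmb8a and psmb9a belong to this list. Of 23 measured genes of endoplasmic reticulum stress and folding 15 lay above 0 in batch 2 and 20 in batch 1, with medians of 0.12 and 0.75. The background was 4861 of 8793 genes above 0 in batch 2 and 4335 in batch 1.

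Markers of epidermis, endothelium and fibroblasts were mostly lower on day 1 in batch 2, with the lowest medians in the run of B. The medians of the epidermis and epithelium list were -0.03, -1.42 and -0.09 in the runs of A, B and C, and 0.21 in batch 1. The endothelium list had -0.13, -1.02 and -0.78 in these runs, and 0.51 in batch 1. The fibroblast list had 0.40, -1.49 and -0.12, and -0.57 in batch 1. The nerve and glia list, by contrast, had -0.452, -0.446 and -0.24 in the runs of A, B and C, and the pigment cell list -0.26, -0.10 and 0.10. The epithelial adhesion gene epcam had 2349, 205 and 2201 in batch 2 on day 1, against 3559, 2218 and 4282 on day 0. In batch 1 epcam had 2892 and 1726 on day 1, against 1907 on day 0.

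The vessel receptor kdrl had 2963, 730.4 and 3369 in batch 2 on day 1, against 3218, 3112 and 5814 on day 0, and hemoglobin hbaa1 had 2198, 571 and 442.5 on day 1, against 3647, 884 and 9722 on day 0. Both were lower in all 3 runs of batch 2 and not in batch 1. Red cell genes were less uniform than hbaa1. Of 19 measured erythrocyte genes 6 lay above 0 in batch 2, with medians of 0.01, -0.45 and -0.36 in the runs of A, B and C. The 2 measured defining markers of erythrocytes, hbaa1 among them, had a median of 0.06 in the run of B. Collagen col1a1a was lower in all 5 differences, with a log2 change of -0.86 (SE 0.32, limma adjusted p = 1.0), with -0.04 in the run of A and -1.63 in the run of B. The matrix protease inhibitor timp2b was higher in all 5 differences, with a log2 change of 0.92 (SE 0.33). The array of day 1 replicate B of batch 2 had the lowest summed signal of the kidney, liver and intestine list, 13738, against 54680 to 76667 on the other day 1 arrays and 47024 to 92300 on the day 0 arrays. With 1 array left out, the batch 2 median of the epidermis list ran from -0.89 to -0.15, beside -0.57 with none left out. The endothelium median ran from -0.77 to -0.37, beside -0.51. That of the kidney, liver and intestine list ran from -0.54 to -0.31, beside -0.41. Why day 1 replicate B of batch 2 differed was not tested.

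The later days put the first day in its course, as a description over 31 arrays. Of these the labels grade as poor 3 of 4 day 4 arrays, 2 of 5 day 7 arrays and 1 of 2 day 14 arrays of batch 2, and 1 of 2 day 14 arrays of batch 1. In batch 2 the median of the germ cell and meiosis genes was 6.29, 7.96, 7.13, 6.54, 6.33 and 6.46 in the order of days 0 and 1, then 4, 7, 10 and 14. The M phase and mitosis median was 7.15, 7.93, 8.46, 8.67, 7.82 and 8.51 on these days. Thus the germ cell list in batch 2 was highest on day 1 and near its day 0 level from day 7 on, while the M phase list was above its day 0 level on each later day, as was also so with only the arrays graded good.

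In batch 1 the median of M phase and mitosis was 10.08, 8.12, 9.10, 6.83, 7.95 and 6.99, and that of the germ cell and meiosis genes 8.77, 7.79, 7.88, 6.28, 6.82 and 6.14. Both were highest on the single day 0 array. The median of the leukocyte markers was 9.75, 10.02, 8.86, 7.50, 7.68 and 6.91 in batch 2, and 8.70, 10.80, 8.74, 8.22, 8.44 and 7.18 in batch 1. In batch 2 this median of levels on day 1 lay above that on day 0, although the median of the changes of single genes was -0.15, and the 3 arrays of each day overlapped.

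**Figure D5:**
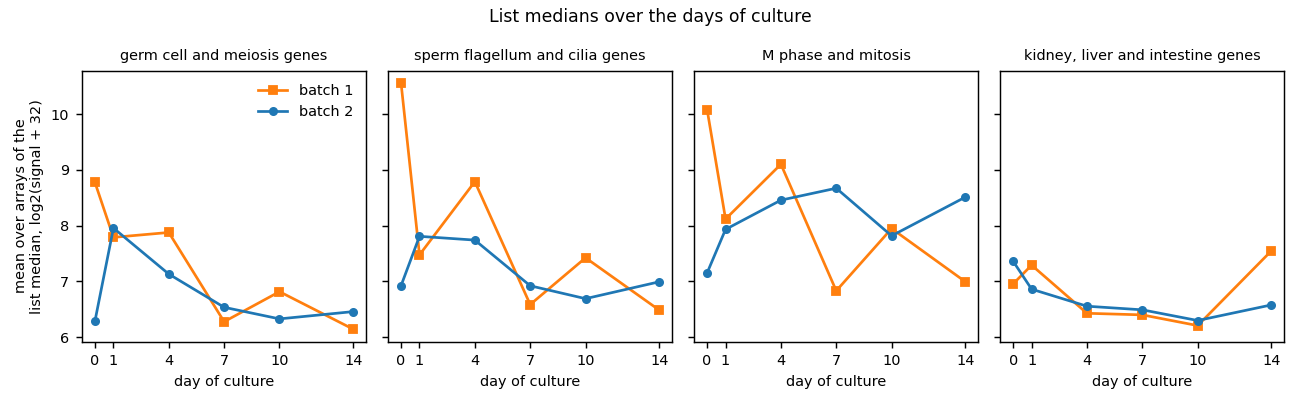
Mean over arrays of the median log2(signal + 32) of 4 gene lists by day of culture in batch 1 (squares) and batch 2 (circles). In the germ cell, flagellum and M phase lists the batches lie farthest apart on day 0, with 6.92 in batch 2 and 10.56 in batch 1 for the flagellum list, and closer on day 1.

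Among single genes, slc13a1 had lower mean signals on the later days, with 729, 132, 16.1, 4.4, 20.2 and 18.6 on the same 6 days of batch 2. The mean signal of irf1b was 5127, 8440, 4571, 428, 360 and 141 on these days, highest on day 1, but with only the good arrays it was highest on day 4, at 13814 on 1 array. The actin acta1a had 388, 263, 307, 1107, 5191 and 828 in batch 2 and 486, 131, 2680, 5183, 3627 and 5588 in batch 1, lowest on day 1 in both. With only the good arrays its lowest level in batch 2 was on day 4, at 199.8 on 1 array. Myogenin myog had 124, 147, 104, 361, 626 and 165 in batch 2 and 60.5, 76.7, 498, 579, 439 and 479 in batch 1, lower on days 0 and 1 than on day 7 in both.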

How the data were processed

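The authors deposited MAS5 signal intensity values, linear and scaled per array. The MAS5 version was not given in the sources used here. Per array the trimmed mean (2% per tail) was 500 in both batches. The study's methods name RMA values, which were not used here.

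After removal of 115 control probe sets, 15502 remained, and the arrays were brought to the average quantiles of the 10 batch 1 arrays graded good, 32 was added and log2 was taken. Array annotation gave 1 symbol for 10795 probe sets, updated by Entrez gene ID for 10711, several for 135 and none for 4572. Day 1 was compared with day 0 by limma (lmFit, eBayes, version 3.58.1, R version 4.3.3), two-sided, with the run as a block (Benjamini-Hochberg over 15502 probe sets, called at adjusted p under 0.05). Residual degrees of freedom were 4 over the 9 arrays, 2 in batch 2 and 3 for the difference between batches. The small number of arrays limits the precision. In batch 2 the replicate letters pair the arrays, because the labels put each letter in a run of its own. The fits were tested on simulated data.

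Named genes were the 12 smallest p of each sign with the same sign in both batches, for each list the 4 smallest p or fewer, and 11 muscle genes (stained or measured by PCR in the study, except myf5 and ncam1a). Others were chosen after their values were seen. The members and lists were chosen with earlier results of these data known. No list was tested: each is described by counts and its median. Alternatives were other scaling, offsets, filters, blocks and sets of arrays, and leaving out each array. The course with only good arrays was added after the data were seen.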

Additional observations from a re-analysis of the deposited data

Results flagged for a closer look

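In 15 genes 1 array of a day stood far from the others of that day, by the gap to its neighbour relative to the range. Chance alone flags about 1 in 20 groups, a rate that need not hold for genes chosen by their p or after their values were seen. All flags on day 0 fell on the single array of batch 1. On day 1 replicate B of batch 2 had the highest signal of saa (2000.3) and txnb (12469) and the lowest of epcam (205). On day 0 the array of batch 1 had the highest signal of piwil1 (4909), hormad1 (10095), si:ch211-209a2.2 (5429), terb1 (2260), plk1 (3170), cdk2 (5011), psmb7 (6639), cfap299 (9674) and tekt1 (6078). It had the lowest signal of fam210aa (146), cyba (291) and egr1 (2436).

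In 12 named genes the log2 change differed between batch 2 and batch 1 by limma's test of the difference. Batch 2 minus batch 1 was 7.64 for piwil1, 9.33 for hormad1, 7.38 for rbm44, 8.30 for si:ch211-209a2.2, 6.11 for terb1, 6.54 for prc1b, 5.71 for plk1, 6.39 for ndc80, 5.93 for cdk2, 2.80 for uhrf1, 7.57 for cfap299 and 6.25 for tekt1. All rest on the single day 0 array of batch 1.

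The control probe sets for fluorescent reporters, which no comparison used, were bright on some later arrays. The DsRed probe set reached 17809 on day 7 replicate B of batch 1 and the EGFP probe set 15349 on day 4 replicate A of batch 1, as deposited signals. On that day 4 array DsRed was 18.3, and on day 4 replicate B of batch 1 it was 9310. DsRed was 7796 to 17809 on the batch 1 arrays of days 7 to 14 and at most 239.8 on any batch 2 array.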

How the results depend on the processing

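Over the 9 arrays 0 probe sets were called in either direction under every alternative run on those days, including each array left out (0 to 0). This does not cover the fits of both batches that add arrays of the later days, whose calls are not given here. Batch 2 alone gave 4 called higher. In batch 2 the calls were 0 with no replicate block, an offset of 8, a larger offset or a mean signal of at least 100, and 1 with the authors' scaling or the quantiles of the 9 arrays. With all 20 arrays of batch 2 they were 79 higher and 32 lower, and with its good arrays 140 higher and 87 lower. Leaving out 1 array gave 33 to 47 higher and 1 to 73 lower: 47 and 44 without either array of A, 46 and 1 without either of B, and 33 and 73 without either of C. The difference between batches was called for 636 and 116 probe sets with no replicate block and for 102 and 6 with an offset of 8. It was called for 0 to 1064 (higher) and 0 to 429 (lower) with 1 array left out: 0 without any array of batch 2, 133 lower without day 1 replicate A of batch 1, and 1064 and 429 without day 1 replicate B of batch 1. It could not be fitted without day 0 replicate A of batch 1. The causes were not tested.

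Of 1552 values of named genes under alternatives, 18 changed direction and 1424 kept direction and side of the threshold. The log2 change of pax3a was 0.024 with all 31 arrays, 0.023 with the larger offset, 0.06 with the authors' scaling, 0.081 with no replicate block, 0.035 with the run as a random block and -0.51 to 0.26 with 1 array left out (0.038 without either array of A in batch 2, 0.26 without either of C). Other probe sets gave 0.31 and 0.041 for pax7a, -0.39 for zbtb12.2 and 0.15 for epcam in batch 2. That of myod1 was 0.10 with the authors' scaling and -0.27 to 0.14 with 1 array left out, and that of cxcr4a -0.78 to 0.34. Of 612 list medians, 12 moved beyond the spread, a count that does not show whether a median kept its sign. With both batches in the fit and 1 array left out, the flagellum median ran from -0.834 to 0.799. That of M phase ran from -0.481 to 0.75 and that of the proteasome from -0.042 to 0.747. Some other lists kept their sign, as ribosome biogenesis did at 0.059 to 0.599. Without the day 0 array of batch 1, that batch holds only day 1 arrays, and the changes are those of batch 2 alone. The upper ends of these 4 lists, and the lower ends of pax3a and myod1, are such values of batch 2 and not of both batches.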

Other observations

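An alternative added after the data were seen put all 20 arrays of batch 2 in the fit. In it 64 of 8793 genes were called higher and 25 lower on day 1. The 64 held 14 of the 44 germ cell genes and 11 of the 66 flagellum genes. They also held 6 of the 65 genes of M phase and 1 of the 63 of S phase. The 25 held 8 of the 71 genes of kidney, liver and intestine and 1 of the 36 clock and glucocorticoid genes. The germ cell, flagellum and kidney lists were written after the values were seen, a choice that can raise their counts.

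The DsRed probe set had deposited signals of 80.4 and 235 on day 1 in batch 1, against 93.7 on day 0. In batch 2 it had 13.9, 97.3 and 31.7 on day 1, against 3.4, 9.6 and 66.0 on day 0. The 2 days overlapped.

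Among the germ cell genes the egg coat gene zp3a.1, chosen after its values were seen, had 1119 on day 1 replicate A of batch 1 and 475 on day 1 replicate C of batch 2, against 86.3 on day 0 in batch 1 and 24.2 to 56.3 on day 0 in batch 2. The other day 1 arrays are not given here, so these values do not show that the gene was higher on day 1 as a whole. The germ cell list had a median of -1.69 in batch 1, on the other side of 0.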
